A study of Bos taurus with 11 samples.

Results

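In rumen epithelial primary cells (REPC) of cattle, 3044 H3K27ac intervals appeared after butyrate outside annotated promoters and genes. They were chosen from the 48701 H3K27ac intervals called after butyrate by 3 conditions: no overlap with any of the 38148 control H3K27ac intervals, a promoter count of 0, and no gene entry that placed the interval inside a gene. They are called new intergenic intervals here. The comparison of the butyrate and control H3K27ac libraries chose them, so their number, length and H3K27ac signal are a description. Of the 48701 butyrate intervals, 24745 (50.8%) had no control overlap, and 16690 of these lay in gene bodies, 5011 at promoters and 3044 (12.3%) between genes. Outside promoters and genes, 43.8% of the 6952 butyrate intervals met the rule.

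The butyrate libraries came from REPC treated with 5 mM butyrate for 24 h, and the control libraries from REPC cultured without it. All cells came from 1 source, a Holstein bull calf at 2 weeks of age that had received only milk replacer, and they are the cultured lining cells of the forestomach. H3K27ac, H3K4me1, H3K4me3, H3K27me3 and CTCF each had 1 butyrate library and 1 control library, and the 10 ChIP libraries together held 371758 called intervals. With 1 library per mark and condition no difference could be tested against variation between cultures, and the bracketed 95% limits beside shares, by the exact Clopper-Pearson method, describe counting error alone.

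H3K27ac is laid down by histone acetyltransferases at active promoters and enhancers and is removed by histone deacetylases, which butyrate inhibits. Enhancers between genes usually carry H3K4me1 along with H3K27ac, whereas H3K4me3 is typical of promoters, H3K27me3 of Polycomb repression, and CTCF of chromatin boundaries and loops. Butyrate is produced by rumen microbes and is a main fuel of the rumen epithelium.

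The label of the cells was checked at gene starts, within 2 kb on either side. Of 10 epithelial markers, 8 had H3K4me3 after butyrate and 6 in control, among them KRT5, KRT8, KRT18, KRT19 and ITGB4 in both, while TP63 and CDH1 had none. Of 4 fibroblast markers, 3 had H3K4me3 in both libraries, of 3 smooth muscle markers 3 had it after butyrate and 1 in control, of 4 endothelial markers 1 had it in both, and of 3 immune markers none had it. H3K27ac was called at 5 of the 10 epithelial markers after butyrate and at 6 in control. After butyrate it was called at 1 fibroblast, 1 smooth muscle, 1 endothelial and 0 immune markers. In control these counts were 2, 1, 0 and 0. The part of other cell types in the new intergenic intervals was not tested.

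The new intergenic intervals were short and of modest signal. Their length ranged between 195 and 4888 bp with a median of 341 bp, and together they covered 1.47 Mb. The average signal, the tag density of the library over the interval as deposited, had a median of 22.5, a lowest value of 14.5 and a highest of 49.9. New intervals in gene bodies were alike in both measures, with a median length of 348 bp and a median signal of 22.6. The 3908 intergenic butyrate intervals that overlapped control H3K27ac, called shared intergenic intervals here, had medians of 462 bp and 23.9. The 4951 intergenic intervals of the control library without a butyrate overlap had medians of 455 bp and 22.4, but their signal comes from the control library and its scaling against the butyrate library is not stated.

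The limit between members and other intervals was a matter of a few bases in places. The member nearest to a control interval, near DESI2, a gene of the deSUMOylating isopeptidase family (chr16:33359501-33359696, UMD3.1), lay 1 bp away and had an average signal of 17.0. The next members lay 2 bp and 8 bp from control H3K27ac. Just outside the rule, intergenic butyrate intervals overlapped control H3K27ac by 3, 4 and 7 bp, among them an interval near RAB2A, which encodes a small GTPase of early secretory transport, with an overlap of 4 bp and a signal of 21.9.

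The member with the highest average signal lay 19.6 kb before the start of CMIP, an adaptor protein of T-cell signaling (chr18:8144131-8144703). Its H3K27ac signal was 49.9, and the H3K4me1 signal over it was 85.2 after butyrate and 67.8 in control. Control H3K27ac came within 0.5 kb of it. Next came an interval of 1839 bp on chromosome 17 between LOC101909816 and LOC104968594 (chr17:53483368-53485207), with an H3K27ac signal of 46.3 and an H3K4me1 signal of 65.4 after butyrate and 32 in control. Both of these members thus had H3K4me1 in either library, at a lower signal in control.

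A pair of long intervals between MIR2306 and ADRM1, the gene of a ubiquitin receptor of the proteasome, followed with H3K27ac signals of 45.8 (chr13:55422913-55427146, 4233 bp) and 45.4 (chr13:55407998-55411175, 3177 bp). H3K4me1 was called over them after butyrate only, at 46.3 and 42.0. A member 14.3 kb before LPCAT1, which encodes an enzyme of phosphatidylcholine remodeling, had an H3K27ac signal of 45.3, H3K4me1 at 78.2 after butyrate and 57.7 in control, and H3K4me3 at 24.2 after butyrate only. An interval 38.1 kb from the start of NXPH4, a neurexophilin gene, reached 44.2 and also had H3K4me1 after butyrate only, at 39.9. An interval past the end of DNAJB6, which encodes a co-chaperone of the heat shock protein 40 family, reached 42.2 without any of the other marks. The strongest members therefore differed in H3K4me1: some carried it in both libraries, some after butyrate only, and DNAJB6 in neither.

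The longest member, 4888 bp, lay 16.3 kb from the start of MYBBP1A, a nucleolar MYB-binding protein (chr19:25633195-25638083), with an H3K27ac signal of 41.7 and H3K4me1 after butyrate only, at 54.8. The member second in length, 4322 bp, lay 68.1 kb from the start of MYC, the growth-promoting transcription factor, on its 3′ side (chr14:13704705-13709027). Its H3K27ac signal was 29.7, and its H3K4me1 signal, again after butyrate only, was 44.0.

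Most new intergenic intervals lay within a few kb of H3K27ac called in control. The gap to the nearest control H3K27ac interval had a median of 3905.5 bp, with 975 and 11440 bp as the limits of the middle 50%. It was at most 1 kb for 25.4% of members (23.89-27.01) and at most 5 kb for 55.9% (54.1-57.7). Only 113 members lay over 50 kb from any control interval. The nearest control interval was itself overlapped by a butyrate interval for 69.3% of members (67.6-70.9). Of all control H3K27ac intervals 51.2% were so overlapped, and 37.7% of those outside promoters and genes. The units differ: the share of members counts a control interval once for every member nearest to it. The other shares count each control interval once, so they cannot be compared directly. New intervals in gene bodies were not the usual neighbors: their nearest edge was a median of 56755.5 bp away.

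H3K4me1, which the rule did not use, overlapped 1212 new intergenic intervals after butyrate (39.8%, 38.1-41.6) and 1100 in control (36.1%, 34.4-37.9). It was called over 785 members in both libraries, over 427 (14.03%) after butyrate only, over 315 (10.3%) in control only and over 1517 (49.8%) in neither. Fewer new intervals in gene bodies had it, 25.2% after butyrate and 23.8% in control. Shared intergenic intervals had it more often, 53.6% after butyrate and 79.3% in control, and control-only intergenic intervals had 20.02% after butyrate and 51.7% in control. The new intergenic intervals were the set among these intergenic ones whose share was not lower after butyrate than in control.

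Because the sets differ in length, H3K4me1 was also counted within 1 kb of the H3K27ac summit. By this measure 51.3% of new intergenic intervals had H3K4me1 after butyrate and 50.3% in control. New intervals in gene bodies had 34.8% in either library, shared intergenic intervals 64.4% after butyrate and 86.8% in control, and control-only intergenic intervals 31.9% after butyrate and 65.7% in control. The order of the sets was thus the same as by overlap, while the small excess of butyrate over control in new intergenic intervals shrank to within the counting interval.

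**Figure D1:**
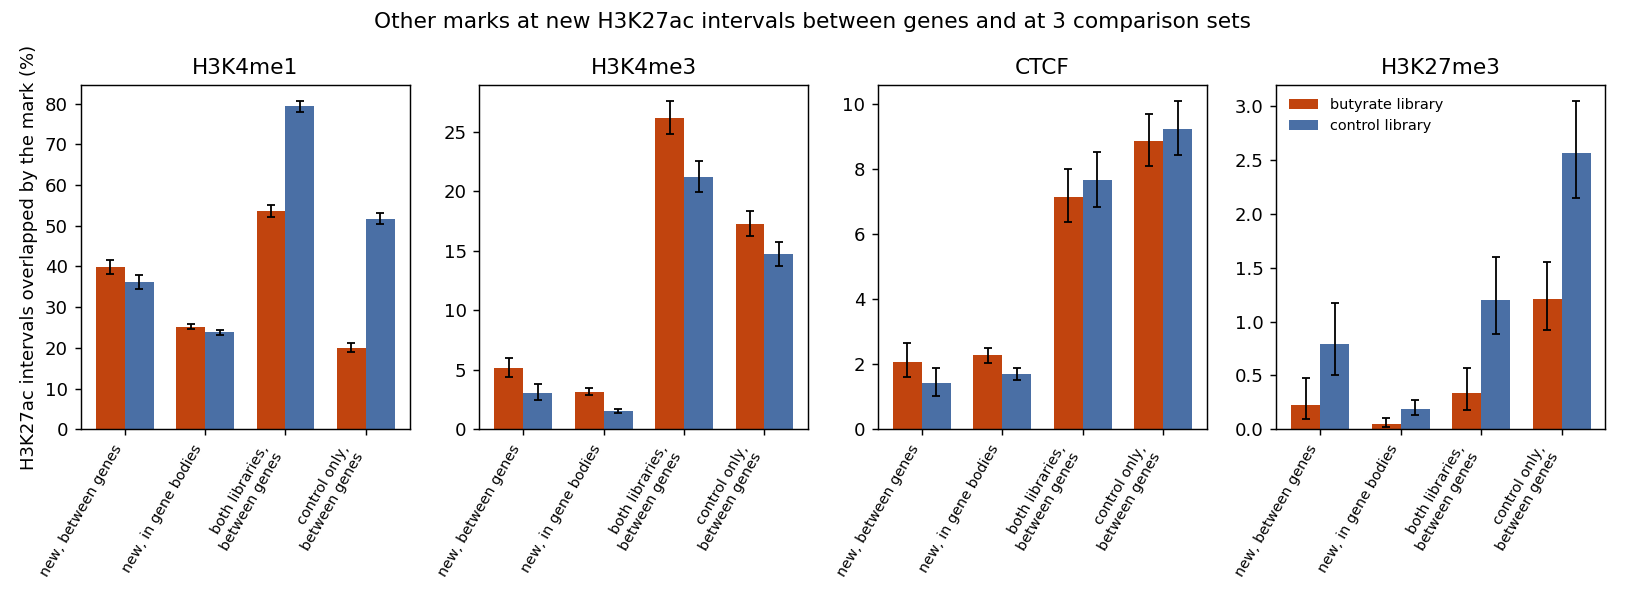
Share of H3K27ac intervals overlapped by H3K4me1, H3K4me3, CTCF or H3K27me3 (percent, a separate scale in each panel) in the butyrate library (orange) and the control library (blue), for new intergenic intervals and 3 comparison sets, with exact 95% binomial intervals as error bars. New intergenic intervals had H3K4me1 at 39.8% after butyrate and 36.1% in control, and low shares of the other marks.

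Where H3K4me1 was called in both libraries at the new intervals, its deposited signal was nearly the same, though the scaling between libraries is not given. The 3044 intervals met 1487 H3K4me1 regions (overlapping H3K4me1 intervals of both libraries merged), of which 760 were called in both libraries, 435 (29.3%) after butyrate only and 292 (19.6%) in control only. Over all 71334 H3K4me1 regions, 27% were called after butyrate only and 41.3% in control only. In the 760 regions of both libraries, the average signal had a median of 42.3 after butyrate and 41.3 in control, and the log2 ratio (butyrate over control) had a median of 0.02, with limits of -0.19 and 0.21 around the middle 50%. The median over all 22632 shared H3K4me1 regions was -0.08. By average signal 2 of the 760 regions were at least 2-fold higher and 1 was lower, against 0.0928% higher and 0.221% lower of all shared regions. By peak signal, the highest tag density in an interval, 11 were higher and 7 lower, against 1.12% and 3.04% of all shared regions.

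The regions past 2-fold by average signal are at named loci. Both that were higher lay at members described above or next to them, the chromosome 17 interval (log2 ratio 1.05) and an interval 35.9 kb from LOC101903308 on the same side of CMIP (chr18:8113584-8115078, log2 ratio 1.10, H3K4me1 signal 67.2 after butyrate). The region that was lower lay 24.1 kb from PLXNA2, a semaphorin receptor gene, where H3K4me1 was 30.4 after butyrate and 63.8 in control (log2 ratio -1.07). Below the 2-fold limit, the ratio reached 0.94 at a pair of members between ATXN10 and LOC101903068, where H3K4me1 was 63.5 after butyrate and 31.4 in control over the longer of them. The highest H3K4me1 of all members was over 3 intervals between NOTCH1, the receptor gene, and EGFL7, the gene of a secreted endothelial factor, at 88.1 after butyrate and 79.3 in control. Their H3K27ac signals were 24.0, 26.6 and 22.2, where all members had a median of 22.5 and an upper limit of the middle 50% of 25.9.

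**Figure D2:**
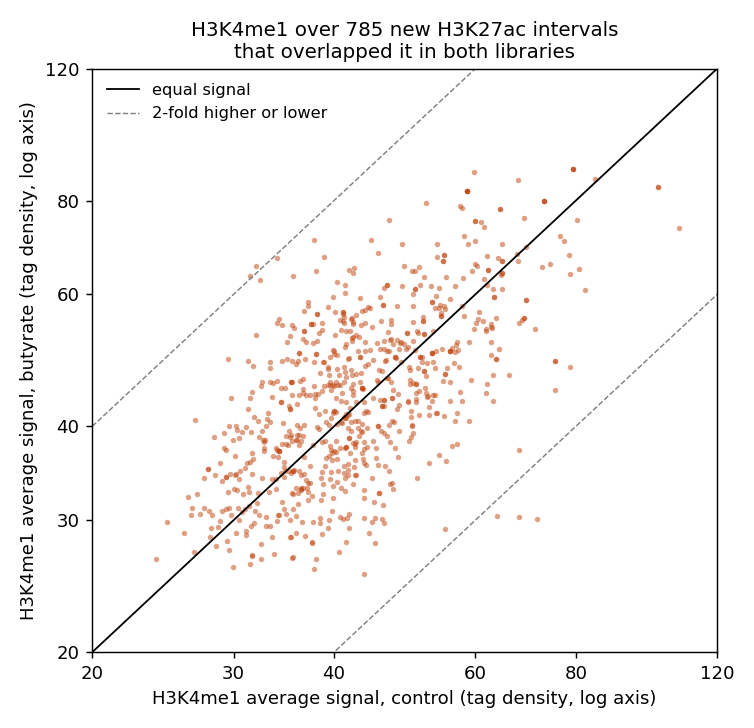
Average H3K4me1 signal (tag density, log axes) after butyrate against control over the 785 new intergenic H3K27ac intervals that overlapped H3K4me1 in both libraries; each point is 1 interval. The points scatter around the line of equal signal, and few reach the dashed lines of a 2-fold difference.

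H3K4me1 after butyrate varied with the H3K27ac signal of the member, whereas H3K4me1 in control varied little. With the members ranked by average H3K27ac signal and divided into 4 groups of 761, from lowest to highest, the share with H3K4me1 within 1 kb of the summit was 40.6%, 47.7%, 56.0% and 61.0% in the butyrate library. In the control library the shares were 51.4%, 49.0%, 50.7% and 50.1%. Length and signal go together (median length 568 bp in the highest group and 273 bp in the lowest), and their parts cannot be told apart here. Ranked by length instead, 4 groups of 761 from shortest to longest had shares of 43.1%, 47.6%, 51.2% and 63.3% in the butyrate library and of 50.5%, 47.4%, 49.0% and 54.3% in the control library. Members with H3K4me1 in control only had the lowest H3K27ac, with a median signal of 20.4, against 23.8 where both libraries had H3K4me1, 23.6 where only the butyrate library had it and 22.0 where neither did.

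The distance to control H3K27ac separated the members further. Within 1 kb of a control interval, 68.2% had H3K4me1 near the summit after butyrate and 83.6% in control. At 1 to 5 kb these shares were 52.5% after butyrate and 46.3% in control, and at 5 to 50 kb 40.5% after butyrate and 32.03% in control. The control library had more H3K4me1 than the butyrate library next to control H3K27ac, and less of it further out. Beyond 50 kb the order turned again in the 113 members there, with 43.4% (34.1-53.0) after butyrate and 54.0% (44.4-63.4) in control, whose counting intervals overlap.

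**Figure D3:**
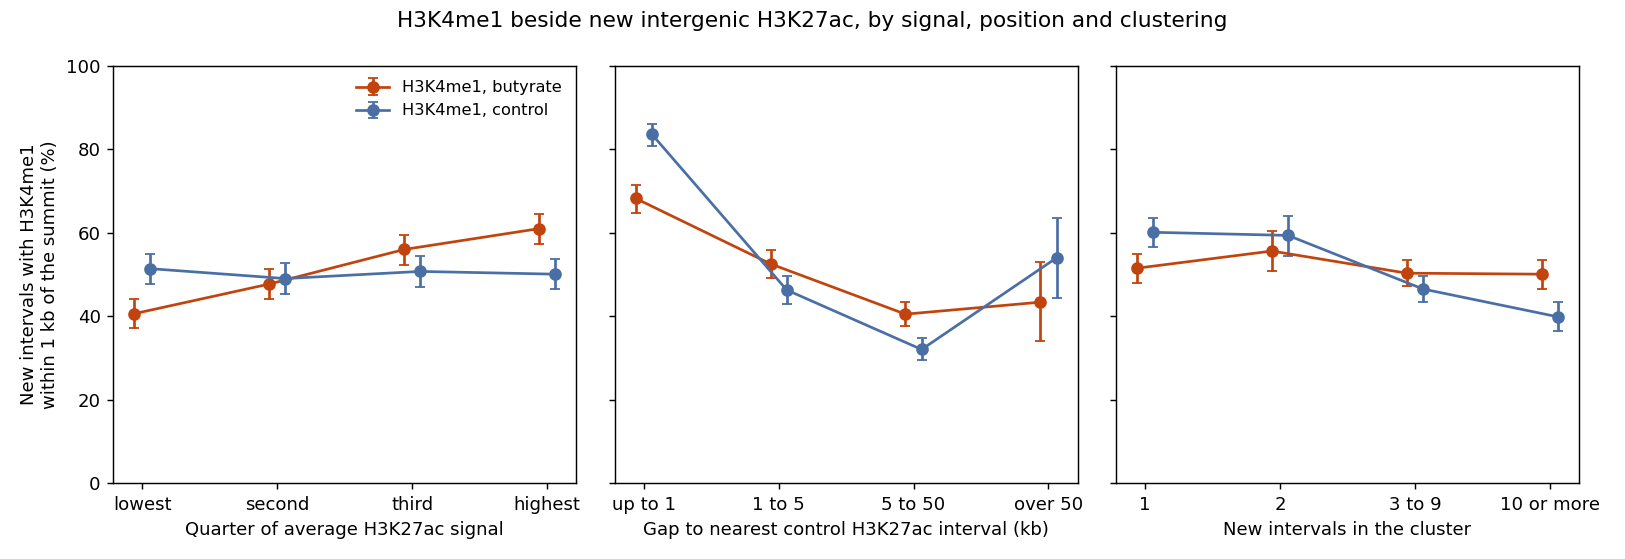
Share of new intergenic H3K27ac intervals with H3K4me1 within 1 kb of the summit (percent, with exact 95% binomial intervals) in the butyrate library (orange) and the control library (blue), by H3K27ac signal in 4 equal groups, by gap to the nearest control H3K27ac interval, and by the number of new intervals in the cluster. The butyrate share was 40.6% in the group of lowest signal and 61.0% in the highest, while the control share stayed between 49.0% and 51.4%.

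H3K4me3 was uncommon at the new intergenic intervals, with 156 members (5.12%, 4.37-5.97) after butyrate and 94 (3.09%, 2.50-3.77) in control. New intervals in gene bodies had 3.15% after butyrate and 1.53% in control, and shared intergenic intervals had 26.1% after butyrate and 21.2% in control. The members met 147 H3K4me3 regions, of which 96 were in both libraries, 50 (34.0%) after butyrate only and 1 in control only, against 29.2% and 6.64% of all 34105 regions. The median log2 ratio was 0.13 at members and 0.06 over all shared regions, and 6 of the 96 regions were at least 2-fold higher and 0 lower (5.2% and 0.1% over all shared regions). By peak signal 11 were higher and 0 lower (10.5% and 0.548% over all). CpG islands went with the mark: 13.8% of the 261 members on a CpG island had H3K4me3 after butyrate, against 4.31% of the other 2783.

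The highest H3K4me3 ratio lay between TMEM151A and RIN1, where the newer annotation described below has CD248, a gene that the deposited table does not list. Over a pair of members 18.4 and 19.5 kb from the RIN1 start (chr29:45016165-45016665 and chr29:45015125-45015421), H3K4me3 was 148 after butyrate, whereas the control signal was 33.7 over the longer and 28.2 over the shorter, and their common region had a log2 ratio of 1.81. H3K4me1 in this region was present in both libraries with a log2 ratio of -0.20. A member near DGUOK, a mitochondrial nucleoside kinase gene, had an H3K4me3 ratio of 1.32 on the log2 scale, with a signal of 53.4 after butyrate and 21.4 in control. The strongest H3K4me3 at any member, 158 after butyrate and 88.4 in control, lay between LOC104976305 and LOC104976306 (chr29:49077554-49077885), where the new H3K27ac had a signal of 17.3 only.

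CTCF overlapped 63 members (2.07%, 1.59-2.64) after butyrate and 43 (1.41%, 1.02-1.90) in control. New intervals in gene bodies were alike, with 2.27% after butyrate and 1.69% in control. Shared intergenic intervals had 7.14% after butyrate and 7.65% in control. Of the 66 CTCF regions at members, 41 were in both libraries, 21 after butyrate only and 4 in control only, where 24.4% and 8.11% of all CTCF regions were called after butyrate only and in control only. In the 41 shared regions the median log2 ratio was 0.07, against 0.03 over all shared regions, and 0 regions changed by 2-fold (0.283% higher and 0.0445% lower over all). By peak signal 2 were higher and 0 lower (2.78% and 0.182% over all). The highest CTCF ratios were 0.88, near UBE2H, a ubiquitin-conjugating enzyme gene, and 0.56, near MAP2K3, a kinase gene of the p38 pathway. The lowest were -0.56, near INPP4A, a phosphoinositide phosphatase gene, and -0.41, between PDDC1 and TALDO1, the gene of the pentose phosphate enzyme transaldolase.

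H3K27me3, the Polycomb mark, was rare. It overlapped 7 members (0.230%, 0.0925-0.473) after butyrate and 24 (0.788%, 0.506-1.17) in control, and 20 of these members had it in control only. Of all 48701 butyrate H3K27ac intervals, 0.193% had it after butyrate and 0.996% in control, so the mark was rare at H3K27ac in general. The members met 23 H3K27me3 regions, 18 of both libraries, 0 after butyrate only and 5 in control only. Over all H3K27me3 regions, 28.6% were called after butyrate only and 14.2% in control only. In the 18 shared regions the median log2 ratio was -0.33, with 0 regions at least 2-fold higher and 1 lower (all shared regions: median -0.09, 0.021% higher, 3.48% lower). By peak signal 0 were higher and 6 lower, with a median of -0.77 (0.22% higher and 11.9% lower over all). The region lower by average signal lay at the member past TBX1, a T-box factor gene of pharyngeal development (chr17:74830082-74830344), where H3K27me3 was 26.9 after butyrate and 89.6 in control. H3K4me1 at TBX1 was 69.3 in both libraries, and H3K4me3 was called after butyrate only, at 24.7. Of the 24 members with H3K27me3 in control, 41.7% were on CpG islands, against 8.57% of all new intergenic intervals.

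In all, 1450 members (47.6%, 45.8-49.4) overlapped none of the other marks in either library. This share was not counted for the other sets. For H3K4me1 alone, neither library had it over 49.8% of members, against 49.5% of all butyrate H3K27ac intervals. The share was 65.7% for new intervals in gene bodies and 18.6% for shared intergenic intervals. After butyrate the most frequent combinations were no other mark (1725 members, 56.7%) and H3K4me1 alone (1102 members, 36.2%). H3K4me1 together with H3K4me3 was found at 74, and H3K4me3 alone at 73.

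The new intergenic intervals were gathered in clusters. Joined over gaps of up to 0.0125 Mb, they formed 1322 clusters, of which 837 held a single interval, while 271 clusters of at least 3 held 1779 members (58.4%) and 45 clusters of at least 10 held 803 (26.4%). The same joining put 52.1% of shared intergenic intervals and 28.3% of control-only intergenic intervals in clusters of at least 3. In clusters of at least 10 the shares were 8.37% and 0.263%. Lone intervals made up 27.5% of members, 25.7% of shared and 42.8% of control-only intergenic intervals. The difference from shared intergenic intervals thus lay in the large clusters. New intervals in gene bodies were not counted in this way. Members in clusters of at least 10 had an H3K27ac median of 24.1, and lone members 20.8. H3K4me1 in control lay within 1 kb of the summit at 39.9% of members in the large clusters and at 60.1% of lone members. The butyrate shares by this measure were 50.1% in large clusters and 51.5% at lone members. By overlap with the interval, both libraries had lower shares in large clusters. These were 34.7% after butyrate and 27.3% in control, against 44.3% and 47.8% at lone members.

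The largest cluster held 51 members over 182 kb on the 5′ side of the listed start of TRIO, a guanine nucleotide exchange factor (chr20:58786129-58968146). Their signals ran between 16.1 and 33.8 with a median of 22.8, and only 3 had H3K4me1 after butyrate and 2 in control. Between them lay 14 shared butyrate intervals and 18 control intervals, with the new intervals in the spaces between them. The second cluster held 46 members over 111 kb between LOC104973994 and MYC (chr14:13502071-13613293), of which 10 had H3K4me1 after butyrate and 3 in control. Another 20 lay nearer to MYC, over 63.6 kb.

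The third cluster, 35 members over 73.9 kb between CREG2 and IL1R2, a decoy receptor gene for interleukin 1, was rich in H3K4me1. The mark overlapped 17 of these members after butyrate and 21 in control. Of 28 members over 50.1 kb between DSTN, an actin-depolymerizing factor, and BANF2, 4 had H3K4me1 after butyrate and 2 in control. Of 27 members over 48.6 kb between NXPH4 and MIR2431, 3 had it after butyrate and 1 in control. A cluster of 26 on the 5′ side of ZMIZ1, a transcriptional coactivator, stood at the other end with H3K4me1 over 21 after butyrate and 12 in control.

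**Figure D4:**
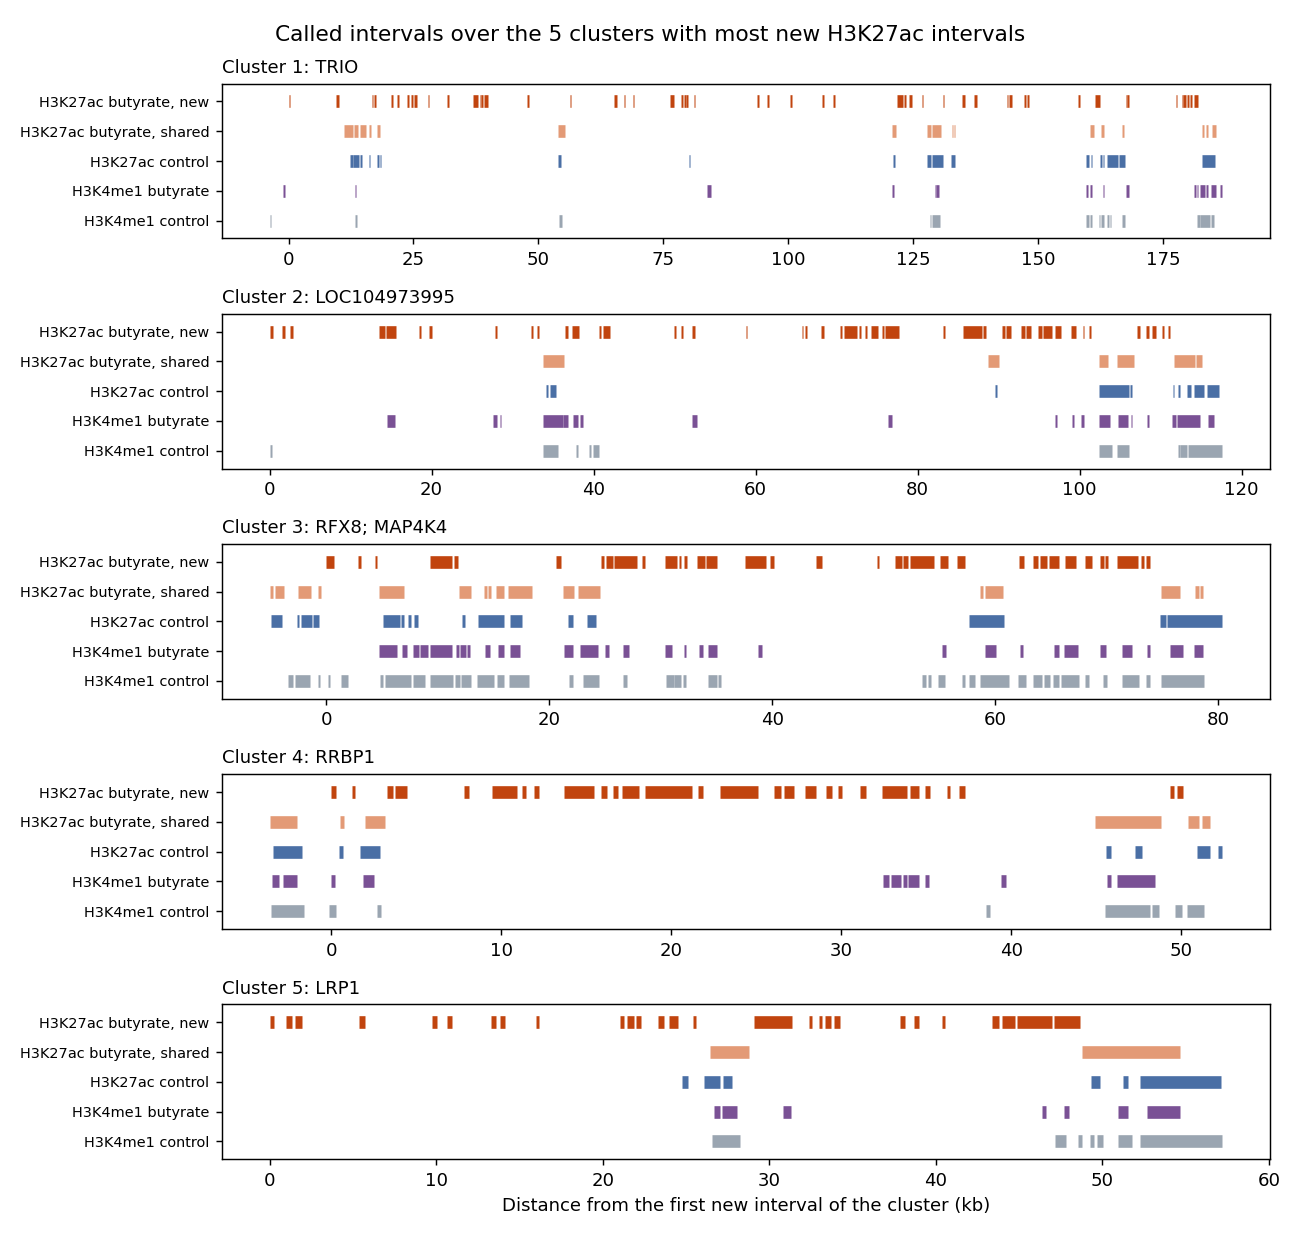
Called intervals over the 5 clusters with most new intergenic H3K27ac intervals, drawn to scale in kb from the first new interval, with rows for new and shared butyrate H3K27ac, control H3K27ac, butyrate H3K4me1 and control H3K4me1; clusters 1 and 2 are named by the nearest listed start and clusters 3 to 5 by the unlisted genes described in the text. New intervals (top row) outnumber the shared ones in every panel, with 51 in the largest cluster.

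Several of these clusters lie where a newer cattle annotation has a gene that the deposited one does not name. For 2849 members, both neighboring gene starts could be matched by symbol to RefSeq on ARS-UCD2.0, which was used for names and gene order only. Of these, 1103 (38.7%, 36.9-40.5) lay at 215 loci whose neighbors enclose a named protein-coding gene that the deposited table lists nowhere. The same count gave 10.2% of new intervals in gene bodies, 25.8% of shared intergenic and 20.3% of control-only intergenic intervals. Whether a member lies inside such a gene was not examined, since the builds differ, and a gene can also be unlisted because the older annotation carried it under another name.

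RFX8, a member of the RFX transcription factor family, and MAP4K4, a kinase of stress signaling, lie between the neighbors of 57 members (signal 17.1 to 40.4, median 24.3). AFAP1, an actin-filament binding adaptor, lies between the neighbors of 37 (16.6 to 35.5, median 24.1), and RREB1, a zinc finger factor of Ras signaling, of 31 (17.4 to 36.7, median 22.9). LRP1, an endocytic receptor, and RRBP1, a ribosome-binding protein of the endoplasmic reticulum, had 28 each, with medians of 26.9 and 24.5. CDC42BPB, a kinase of actomyosin, had 26, FAT1, an atypical cadherin, 22, and SH3PXD2A, a podosome scaffold, 21. The 17 members at DOT1L, the H3K79 methyltransferase, had a median of 29.3, and the 12 at LAMA5, a laminin chain of epithelial basement membranes, a median of 29.1. The LAMA5 locus holds the pair of strong intervals next to ADRM1, and the SPNS2 locus (14 members; a sphingosine 1-phosphate transporter gene) the longest one next to MYBBP1A. Of the clusters above, that between CREG2 and IL1R2 is at the RFX8 and MAP4K4 locus, and that between DSTN and BANF2 at RRBP1. The LRP1 locus holds the cluster between NXPH4 and MIR2431 and the strong interval 38.1 kb from NXPH4.

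Members with an unlisted gene between their neighbors had H3K4me1 less often, 34.5% (31.7-37.4) after butyrate and 31.6% (28.9-34.5) in control. The 1746 members without such a gene had 43.7% (41.4-46.1) after butyrate and 39.2% (36.9-41.5) in control. By H3K4me1, those 1746 thus stood further from the new intervals in gene bodies, which had 25.2% after butyrate and 23.8% in control. By H3K4me3 after butyrate they stood nearer, with 4.01%, against 6.71% of members with an unlisted gene and 3.15% of new intervals in gene bodies. Among new intervals in gene bodies, H3K4me1 after butyrate was 26.9% with an unlisted gene and 24.5% without.

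**Figure D5:**
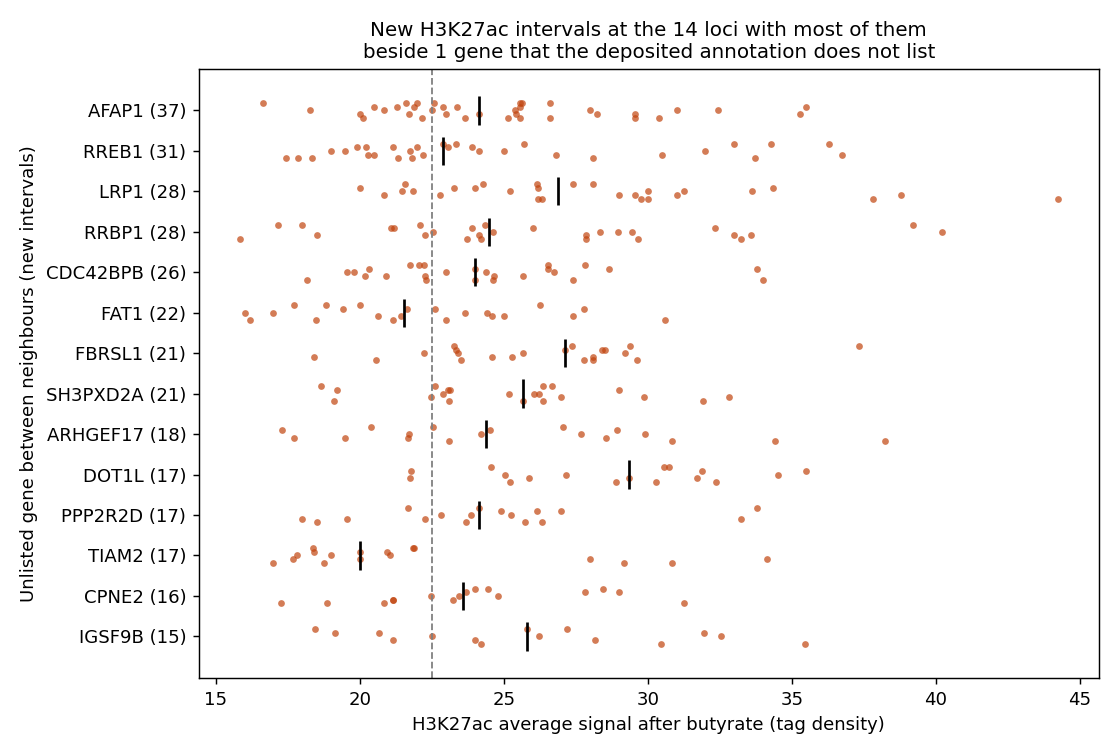
Average H3K27ac signal after butyrate (tag density) of every new intergenic interval at the 14 loci with most of them among loci with 1 unlisted gene; each point is 1 interval, black bars are locus medians and the dashed line is the median of all 3044. The numbers of intervals run between 37 at AFAP1 and 15 at IGSF9B, and the locus medians reach 29.3 at DOT1L.

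By the deposited annotation, 2007 members (65.9%) had no gene listed, 928 lay past the end of a gene and 180 before a start. The nearest derived start was a median of 29144 bp away, and over 100 kb away for 14.3%. In all, 956 of 25197 symbols (3.79%) had a new intergenic interval listed beside them, 641 of them a single one. The listing reaches only a short way past either end of a gene.

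Genes of the cytoskeleton and of adhesion had a new interval beside them in 9 of 41 cases. CNN1, the smooth muscle protein calponin, had 3 with signals of 20.2, 25.1 and 26.2 at the lowest, median and highest, and ANKRD1, a target of YAP, had 2, the higher at 25.9 and 11.5 kb past the start. CTTN, the actin-branching regulator cortactin, had 1 at 25.3, and ZYX, the focal adhesion protein zyxin, 1 at 24.1. ACTN1, CAPN2, ARHGEF2, VCL and TPM1 were the others. Genes of hemidesmosomes, laminins and integrins had 4 of 19: ITGA3, which encodes the alpha chain of a laminin-binding integrin (23.3), LAMB3 and LAMC1, which encode laminin chains (22.5 and 18.4), and FN1, which encodes fibronectin (19.0).

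Growth factors and receptors had 7 of 51, namely PDGFA (26.1), IGFBP4 (24.4), the neighbors IGFBP2 and IGFBP5, which share 1 interval (21.7), NOTCH1 (20.9), FGF18 (18.4) and TGFB2 (17.1). Of the AP-1 and immediate early genes, 1 of 31 had a listed interval, MAFK, a small MAF partner of the AP-1 family, with 3 (25.2 to 30.1). By the nearest start within 100 kb this list had 5 of 31, including MYC and DUSP1, a phosphatase of MAP kinases, against 4.5% of all 23870 starts. Ribosomal protein genes had 7 of 56, led by RPS3 with a signal of 40.8 at its strongest interval. Transfer RNA symbols also had 7 of 56, but a start could be derived for only 2 of them. Whether such a symbol stands for 1 gene copy was not examined.

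The other lists are given beside the 3.79% of all symbols. Stratified epithelium and keratin genes had 2 of 48 (KRT7 and ELF3), chromatin and deacetylase genes 2 of 42 (HDAC5 at 31.4 and HDAC7 at 19.1), cell cycle genes 3 of 43 (CCND3, CCND2 and MKI67), and HOX and other developmental factors 3 of 94 (IRX3, SOX7 and TBX1). Neuronal genes had 1 of 70 (NEFH), genes of short-chain fatty acid transport and ketogenesis 1 of 29, markers of other cell types 1 of 28 (FLT1), and olfactory receptors 0 of 43. MicroRNA genes had 19 of 591 (3.21%) and provisional loci 156 of 8548 (1.82%). With lists of this size the counting intervals are wide, for example 10.6-37.6% for the cytoskeleton list and 6.05-45.6% for the hemidesmosome list.

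The new intergenic intervals were spread unevenly over chromosomes. There were 1.14 per Mb over a span of 2660 Mb, with 0.161 per Mb on chromosome X, a median of 1.28 over chromosomes and 3.15 per Mb on chromosome 25. The unevenness was not particular to them. Shared intergenic intervals had 0.228 per Mb on chromosome X and 2.82 on chromosome 25. New intervals in gene bodies had 0.813 per Mb on chromosome X and 17.7 on chromosome 25. As a share of the intergenic butyrate H3K27ac intervals of the chromosome, new intergenic intervals ran between 29.0% on chromosome 1 and 58.7% on chromosome 27.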

How the data were processed

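ChIP-seq of 4 histone marks and CTCF was performed for the study at a company, Active Motif, on REPC with or without butyrate. The labels name Trim Galore 0.4.1 for trimming, BWA for alignment and MACS2 for peak calling, on UMD3.1. The deposited table gives each called interval with its coordinates, summit, peak and average signal (tag density), CpG island and promoter counts, and the genes listed with position and distance. The scaling of this signal from library to library is not given in the sources used here, nor is the coordinate base (0 or 1). The table holds no read totals, and those of the study's mapping summary were not used here. An absent interval means that none was called. Signal exists for called intervals only.

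Groups were taken from the sample labels. Promoter entries reached about 7.5 kb before and 2.5 kb past a start, judged from the nearest entries without a promoter count (7513 and 2521 bp). Overlap required 1 bp. Log2 ratios of butyrate over control used regions called in both libraries, with no pseudocount, and 2-fold was counted as a change. Gene starts were derived from summits and distances, with at least 2 listings and 90% agreement, giving 23870 starts. A locus was compared with RefSeq (ARS-UCD2.0) only where both neighbors lay on the same chromosome with spans within 2-fold or 100 kb. No sequence is given, since no genome of UMD3.1 was used here. No test was possible with 1 library per mark and condition.

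The members, gene lists and naming rule were chosen with earlier results of these data known. Named were the 12 members of highest signal, the 5 longest, the 5 largest clusters, the 4 at each extreme of H3K4me1, H3K4me3 and CTCF, up to 4 with H3K27me3 in control, up to 4 genes per list and the 3 nearest to either side of the rule, of which the most informative are in the text; some items are not reported here. The unlisted loci, further genes of a list, and the cluster at ZMIZ1 were chosen after their values were seen. Alternatives were a stricter threshold (25% quantile of peak signal), equal interval numbers, 50% overlap, a distance of 1 kb, other folds, peak signal, centring and joining at 5 or 25 kb. The functions for overlaps, gaps, regions, gene starts and neighboring starts were first tested on simulated intervals, and the matching to RefSeq was not. Python 3.11.15, numpy 2.4.6, pandas 2.3.3, scipy 1.17.1 and matplotlib 3.10.9 were used.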

Additional observations from a re-analysis of the deposited data

How the results depend on the processing

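Of the main values recomputed under an alternative, 31 were counted as moved and 58 as the same. Of the differences in share between sets, 45 moved, 99 stayed the same and 0 reversed. The small median log2 ratios of H3K4me1 and CTCF changed sign when a mark within 1 kb was counted. The number of new intergenic intervals was 2007 when any gene entry excluded an interval. The following shares are of new intergenic intervals. H3K4me1 after butyrate was 37.7% where the overlap had to reach 50% of the shorter interval, 53.1% within 1 kb, 35.5% for members without control H3K27ac within 1 kb, 43.7% for members without an unlisted gene between neighbors, and 51.3% within 1 kb of the summit. H3K4me1 in control was 33.1%, 52.8%, 28.4%, 39.2% and 50.3% in the same order. H3K4me3 after butyrate was 8.44% within 1 kb, 3.61% without control H3K27ac within 1 kb, 4.01% without an unlisted gene and 7.65% from the summit, and in control 5.75%, 1.94% (without control H3K27ac within 1 kb) and 4.93% from the summit. CTCF was 6.37% after butyrate and 6.04% in control within 1 kb, and 4.99% after butyrate and 4.40% in control from the summit. H3K27me3 was 0.493% after butyrate and 1.41% in control within 1 kb, and 1.31% in control from the summit. The median log2 ratio of H3K4me1 was -0.018 within 1 kb, 0.078 without control H3K27ac within 1 kb and 0.10 after centring. That of CTCF was -0.026 within 1 kb, and that of H3K27me3 was -0.77 by peak signal. By peak signal, shared H3K4me1 regions at least 2-fold higher or lower numbered 11 and 7, and H3K27me3 regions lower numbered 6. Symbols with an interval listed within 5 kb of the start numbered 53. The counts from the summit and those without unlisted genes were chosen after seeing the data. The cause of these shifts was not tested, beyond what wider windows and fewer members give by construction.

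No paired analysis was possible because each mark had 1 butyrate library and 1 control library. No replicate was left out, for the same reason. The intervals given for shares cover the counting of intervals, not variation between cultures, libraries or peak calling, and neighboring intervals of a cluster are not independent. An interval counts as new when none was called in the control library at that place, so differences in depth or enrichment of the 2 H3K27ac libraries, which were not analysed here, cannot be told apart from the treatment.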
